A study of Mus musculus with 13 samples.

Results

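The insulin-like growth factor binding proteins and the growth hormone axis were described here by 10 genes in murine liver, 10 of the 11779 genes listed in the deposited liver table. They were the binding protein genes Igfbp1, Igfbp2, Igfbp3, Igfbp4 and Igfbp7, the growth factor gene Igf1 and the acid-labile subunit gene Igfals. The others were the growth hormone receptor gene Ghr and the signaling genes Socs2 and Stat5b. The genes were chosen by their symbols, from a list drawn up with earlier results of the same liver comparison known. All 10 were listed. No test is attached to the choice.

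Liver RNA was sequenced from Balb/c mice on day 5 after an injection of GalNAc-conjugated antisense oligonucleotides (ASOs), which the GalNAc sugar directs to hepatocytes. The Liver LL35 ASO group, 3 samples, received a mix of ASOs against the long non-coding RNA LL35 (Falcor). For this mix the labels give 5 ASOs at 150 mg/kg each. The study's methods state doses as totals over the mix. Its text also gives 5 ASOs, but its supplementary list of ASOs for mice holds fewer. The Liver Luc ASO group, 3 samples, received an ASO against firefly luciferase, so both groups carried a GalNAc-conjugated ASO. The labels give neither the sex nor the age of the mice. AML12 hepatocytes were sequenced on day 2 and were not analysed here.

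For each gene the table holds the authors' mean normalized count, 1 value averaged over both liver groups. It holds no value for a single mouse, so the level in each group, the spread between mice and the reads behind a value are unknown. The other numeric columns are the authors' own comparison and were not used. Every level below is therefore a description of these livers as a pool, with no error, and no difference between the LL35 and Luc groups is given. The gene of LL35 itself, 9030622O22Rik, is not among the genes analysed here, so the knockdown was not checked. Over all listed genes the mean normalized count had a median of 235, and the lowest was 15.6.

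In the liver, growth hormone from the pituitary binds the receptor Ghr, whose associated kinase Jak2 activates the transcription factor Stat5b. Stat5b in turn induces Igf1, the endocrine growth factor of the blood, together with Igfals and the feedback inhibitor Socs2. In the circulation most Igf1 travels in a complex with Igfbp3 and the acid-labile subunit encoded by Igfals. Igfbp1 and Igfbp2 are hepatic binding proteins known to be higher in fasting and to be held down by insulin.

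Promoter sequence is shown for the members whose window held a motif known from this axis or a TATA box close to the start. RefSeq promoters on GRCm38.p6 were matched by symbol for 9 of the 10 members, with 14 start sites in all, and not for Socs2. Each window ran from 250 bases before the start to 50 after it, and both strands were searched. The STAT5 motif TTCNNNGAA was found in 2 of the 14 windows, both of Igfals, against 8.3% of the 32851 windows of all genes and 6.94% of the 11980 windows of listed genes. The insulin response motif CAAAACA, a core known from Igfbp1, was found in 1 of the 14, that of Igfbp1, against 6.28% of all windows and 4.6% of those of listed genes. TATAAA was found in 2 windows, those of Igfbp4 and Ghr, against 13.6% and 7.67%, and the FOXO motif TGTTTAC in 1, that of Igfals, against 3.65% and 2.76%. Each of the 3 stretches shown held 1 motif match. These are matches of letters, not measured binding sites. The 120 bases before the start are given 5′ to 3′ on the plus strand, with the motif in capitals.
Igfbp1, chr11:7197667-7197786, insulin response motif starting 108 bases before the start: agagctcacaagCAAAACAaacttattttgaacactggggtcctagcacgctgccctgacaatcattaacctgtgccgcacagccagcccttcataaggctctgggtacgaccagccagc
Igfals, chr17:24878111-24878230, STAT5 motif starting 58 bases before the start: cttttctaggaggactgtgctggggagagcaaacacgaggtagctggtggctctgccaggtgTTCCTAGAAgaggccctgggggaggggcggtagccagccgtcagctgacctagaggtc
Igfbp4, chr11:99041124-99041243, TATA box starting 28 bases before the start: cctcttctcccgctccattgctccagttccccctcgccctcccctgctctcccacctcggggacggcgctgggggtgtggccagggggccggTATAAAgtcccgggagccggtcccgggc

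Among the binding proteins, Igfbp4 had the highest mean normalized count. The authors' mean for Igfbp4 was 21633 normalized counts, rank 49 of all listed genes, while Igfbp2 had 6339 and Igfbp1 had 3882. These 3 genes lay at percentiles 99.6, 98.3 and 96.9 of the listed genes. Igfbp7, a binding protein of low affinity known from endothelial cells, had an authors' mean of 645 normalized counts and lay at percentile 75.7. Igfbp3, which in liver is known mainly from non-parenchymal cells, had an authors' mean of 303 normalized counts and lay at percentile 56.9. These members thus spanned from near the median of the listed genes to their top percentile. Igfbp5, listed but not a member, lay below the median at percentile 40.1.

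Counts grow with transcript length, so levels of different genes were compared per kb. Length was that of the longest annotated transcript unless coding sequence or merged exons are named, and ratios that moved by over 1.5 times with these are given beside it. On this scale Igfbp4 stood at 5647 normalized counts per kb, Igfbp2 at 4850.1 and Igfbp1 at 2545. Igfbp7 followed at 537 and Igfbp3 at 125 normalized counts per kb. Igfbp4 and Igfbp2 were close to each other, with a ratio of 1.16 per kb of longest transcript, whereas the ratio was 4.1 per kb of coding sequence. The ratio of Igfbp4 to Igfbp1 was 2.22 per kb of longest transcript and 5.97 per kb of coding sequence. With Igfbp5, the other listed gene of the family, at 26.8 normalized counts per kb, the 6 genes added up to a family total. Igfbp4 made up 41.1% of it, Igfbp2 35.3% and Igfbp1 18.5%. Igfbp7 contributed 3.91%, Igfbp3 0.911% and Igfbp5 0.195% of this total per kb. Per kb of coding sequence, Igfbp4 made up 68.7%, Igfbp2 16.8% and Igfbp1 11.5%, so the order of these 3 genes was the same and their shares were not. On that scale Igfbp7 made up 1.66%, Igfbp3 0.837% and Igfbp5 0.479%. Igfbp6 is not among the genes analysed here.

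**Figure D1:**
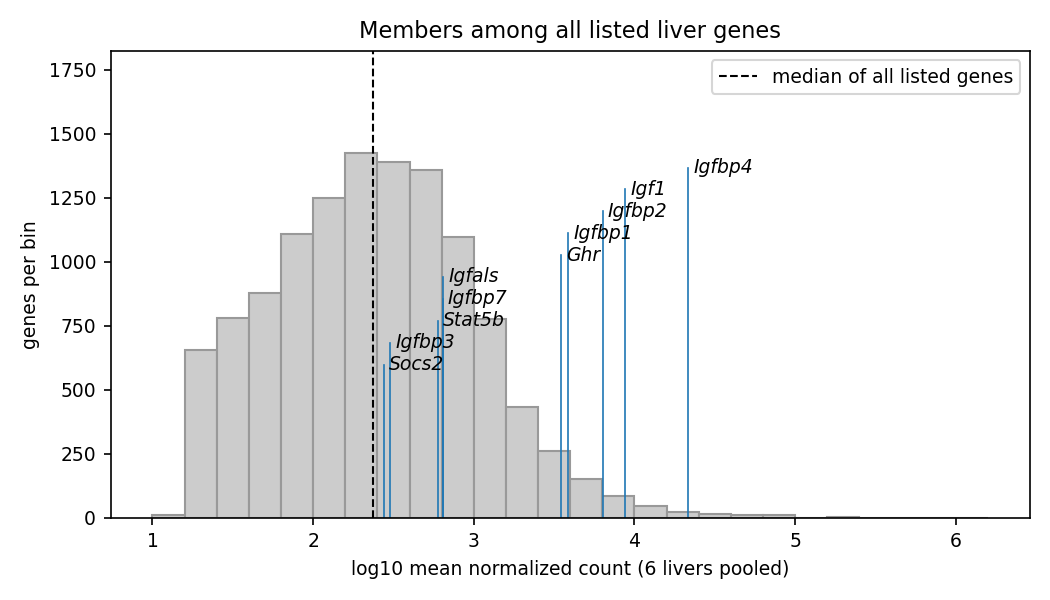
Distribution of the authors' mean normalized count (log10 axis) over the 11779 listed genes, as genes per bin, with a line for each of the 10 members, whose height only separates the names, and a dashed line at the median of 235. All 10 members sit above the median, from Socs2 at 276 to Igfbp4 at 21633.

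Igf1 and the genes around it in the blood complex lay far apart. Igf1 had an authors' mean of 8791 normalized counts, at percentile 98.9, and 1247 normalized counts per kb. Igfals had an authors' mean of 646 normalized counts, at percentile 75.7, and 246 per kb. Per kb of longest transcript, Igfals stood at 0.197 times Igf1, and Igf1 at 9.97 times Igfbp3. Per kb of coding sequence these ratios were 0.0201 and 51.4. The 3 genes whose products form the circulating complex were thus ordered Igf1, Igfals, Igfbp3. The order of Igfals and Igfbp3 was narrow per kb of coding sequence, with a ratio of 1.03, and 1.97 per kb of longest transcript. Igf1 has a long 3′ end and 8 annotated coding transcripts, and its level depends most on the length used.

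The receptor and signaling genes covered a wide range. Ghr had an authors' mean of 3489 normalized counts, at percentile 96.6, and 836 normalized counts per kb. Stat5b, the transcription factor downstream of the receptor, had an authors' mean of 599 normalized counts, at percentile 74.0, and 115 per kb. Socs2, an inhibitor of growth hormone signaling that is itself induced by the hormone, had an authors' mean of 276 normalized counts, at percentile 54.4. Its level of 65.1 normalized counts per kb of longest transcript was the lowest of the 10 members. It lay below the median of 71.1 per kb over the genes with an annotated length. Per kb of coding sequence Stat5b was the lowest member, at 254, and Socs2 stood at 465. Per kb, Ghr stood 7.28 times as high as Stat5b and 12.8 times as high as Socs2. The first ratio was 3.57 with all exons merged, and the second was 3.85 per kb of coding sequence.

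Taken per kb, the order of all 10 members was Igfbp4, Igfbp2, Igfbp1, Igf1, Ghr, Igfbp7, Igfals, Igfbp3, Stat5b and Socs2. With no spread between mice, whether neighbours in this order differ could not be tested. With all exons of a gene merged, Igfbp7 moved above Ghr and Stat5b above Igfbp3. With coding length, Igf1 moved from rank 4 to rank 2, Socs2 from rank 10 to rank 7 and Stat5b from rank 9 to rank 10. Igfbp4 came first on each of the 3 scales. The 10 members together held 0.412% of the summed mean normalized counts of all listed genes.

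**Figure D2:**
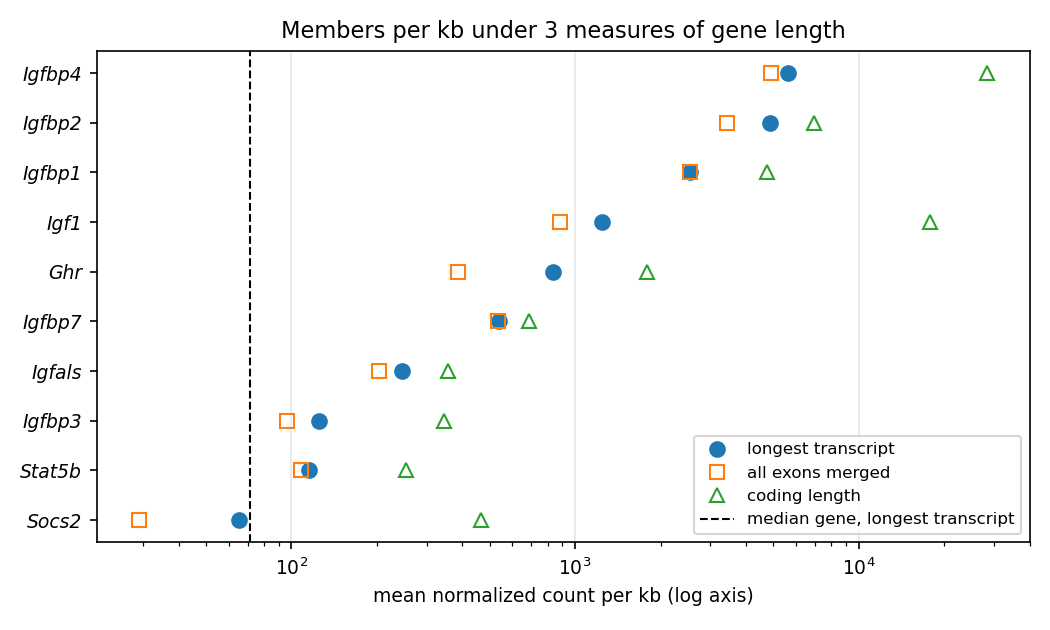
Mean normalized count per kb (log axis) of the 10 members, with gene length taken as the longest transcript (filled circles), all exons merged (squares) or coding sequence (triangles). The dashed line is the median gene at 71.1 per kb of longest transcript, and on that scale Socs2 at 65.1 is the only member left of it.

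Some members are neighbours on the chromosome and still differ in level. In the RefSeq order of protein genes, Igfbp1 and Igfbp3 are adjacent on chromosome 11, at 2545 and 125 normalized counts per kb. Igfbp2 and Igfbp5 are adjacent on chromosome 1, at 4850.1 and 26.8 per kb. Stat5b lies next to its paralog Stat5a on chromosome 11, and Stat5a stood at 42.1 per kb, 0.367 times Stat5b, or 0.216 times with all exons merged. Among the members, Igfbp7 alone shared annotated exon bases with another gene, 85 bases with Polr2b on the opposite strand, which is 7.03% of its exon length.

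The wider axis was read from a list of 30 genes of growth hormone and insulin-like growth factor signaling, of which 23 were listed. Their median was 96.1 normalized counts per kb, against 686 for the 10 members and 71.1 for the listed genes with an annotated length. Of the 23, 15 had a mean normalized count above the median of all listed genes. Among the receptors, the insulin receptor gene Insr stood at 431 normalized counts per kb and the prolactin receptor gene Prlr, a relative of Ghr, at 314. Igf2r, which clears Igf2 from the cell surface, stood at 133, and Igf1r, the receptor through which Igf1 acts, at 16.6. Igf1r was thus at 0.0199 times the level of Ghr per kb. Prlr was at 0.375 times Ghr on this scale, but at 0.951 times per kb of coding sequence. Ranked per kb, Igf1r lay at percentile 15.3 and Igf1 at 96.3. Ranked by mean normalized count, Igf1r lay at percentile 44.7 and Igf1 at 98.9.

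Downstream of the receptors, the kinase gene Jak2 stood at 54.7 normalized counts per kb. Stat3, a factor of interleukin 6 signaling, stood at 333. Of the inhibitors related to Socs2, Cish stood at 43.8 and Socs3 at 44.3 per kb, against 65.1 for Socs2 itself. With all exons merged this order turned, with Cish at 1.1 times and Socs3 at 1.35 times Socs2, while Socs3 stood at 0.361 times Socs2 per kb of coding sequence. The insulin receptor substrates Irs1 and Irs2 stood at 117 and 173 per kb, and Foxo1, the insulin-repressed factor known to bind the Igfbp1 promoter, at 160.0. Socs1, Igf2 and the binding protein proteases Pappa and Pappa2 are not among the genes analysed here. The protease gene Htra1 was the lowest listed gene of the axis, with an authors' mean of 19.6 normalized counts.

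Genes that growth hormone controls in rodent liver were read from a list of 16, of which 12 were listed. Growth hormone is secreted in pulses in male rodents and more evenly in females, and Stat5b carries this difference into sex-biased hepatic genes. The division into female-biased and male-biased genes below follows textbook knowledge and was written after the values were seen. All 5 female-biased genes were listed. Per kb of longest transcript, Sult3a1, a sulfotransferase, stood at 9279 normalized counts, and the cytochrome P450 genes Cyp2b9, Cyp2a4 and Cyp2b13 at 3476, 3166 and 1432. Cyp3a41a was the lowest of them, at 274 normalized counts per kb.

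Of the 8 male-biased genes, 4 were listed. Slco1a1, an organic anion transporter, stood at 1624 normalized counts per kb, within the range of the female-biased genes. Cyp2d9 stood at 103 and Cyp7b1 at 88.7, above the median of 71.1 per kb over the listed genes with an annotated length. Mup20, the pheromone darcin, stood below it, at 46.3. Ranked by mean normalized count, Cyp2d9 and Cyp7b1 lay below the median of the listed genes, at percentiles 42.4 and 45.0. Hsd3b5, Cyp4a12a, Cyp4a12b and Elovl3 are not among the genes analysed here. The 3 listed output genes put in neither group were Serpina3k, a serine protease inhibitor, at 26740.0, Mup3 at 7315 and Mup21 at 25.5 normalized counts per kb. Mup20 was placed in the male-biased group and Mup3 and Mup21 were not, a choice also made with the values known. Since the division was made with the values known, nothing is read from the difference between its groups. Cyp2b, Cyp2a, Cyp3a41 and Mup genes have near-identical copies between which reads can be lost or misassigned, so their levels are uncertain.

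**Figure D3:**
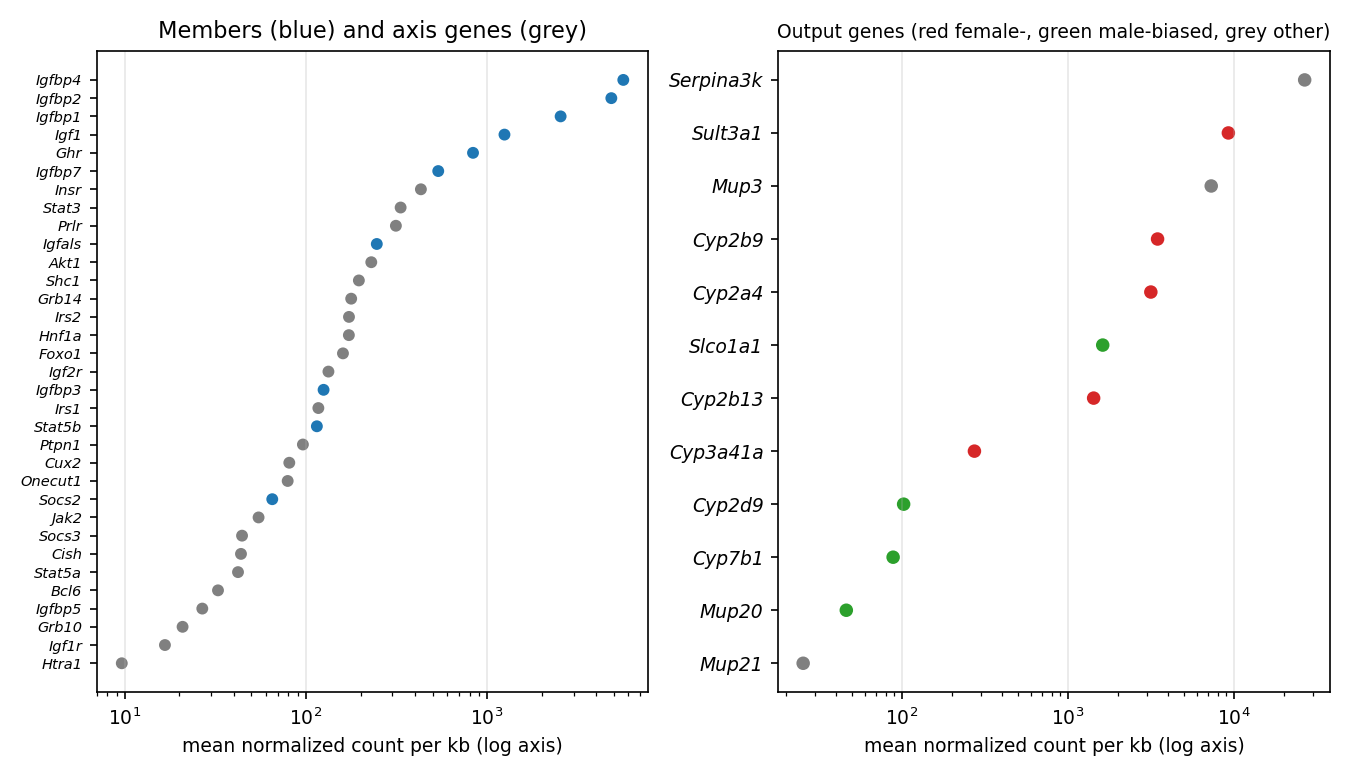
Mean normalized count per kb of longest transcript (log axis). Left, the 10 members (blue) among the 23 other listed genes of the axis (grey), with Htra1 lowest and Igfbp4 highest; right, the 12 listed output genes of growth hormone, with female-biased genes in red, male-biased genes in green and others in grey.

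The tissue label was checked against markers of liver cell types. All 8 hepatocyte markers were listed, and each lay above percentile 90, with Alb at rank 1. The 5 Kupffer cell markers had authors' means from 120 to 1954 normalized counts, the 5 sinusoidal endothelial markers from 121 to 2171 and the 5 stellate cell markers from 51.8 to 1823. Of the 4 cholangiocyte markers 1 was listed, Sox9, at 41.1. The livers thus held reads of non-parenchymal cells as well as of hepatocytes. In bulk RNA, fewer cells of a type and less RNA per cell cannot be told apart, and which cells gave the reads of Igfbp3 and Igfbp7 was not tested.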

How the data were processed

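The authors aligned liver reads with STAR 2.5.3a, counted them on Ensembl genes and normalized the counts with DESeq2 (RLE method), according to the study's methods and the submitters' processing notes. The genome build and annotation release are not given in the sources used here. The deposited signal used here is the mean normalized count per gene, averaged by the authors over the compared liver libraries and not scaled for length. The table also holds the authors' own log2 fold changes, their standard errors, test statistics and p-values, which were not used. The number of reads behind each mouse is not known, which leaves depth and precision unstated.

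Percentiles were computed among the 11779 listed genes. Levels per kb used the longest transcript in GENCODE release M21, matched by Ensembl identifier for 11754 genes. Alternatives were the coding length, taken from the same release in place of a protein table, all exons merged (added after the data were seen), and other sets of ranked genes. The members and gene lists were chosen with earlier results of these data known. Named were all members and the listed genes of fixed lists, with the other listed genes given as counts, and 2 genes of these lists are not reported here. The steps were tested on made-up input. Scripts ran under Python 3.11.15 with pandas 2.3.3, numpy 2.4.6 and matplotlib 3.10.9.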

Additional observations from a re-analysis of the deposited data

How the results depend on the processing

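The median percentile of the 10 members went from 86.1 to 83.5 when only genes whose mean normalized count reached 50 were ranked, to 85.8 with only genes that have a RefSeq protein, and to 93.1 when genes were ranked per kb. Ranked per kb, Igfbp7 rose from percentile 75.7 to 91.6. With the first of these, Igfbp3 and Socs2 fell below the median of the ranked genes, at percentiles 48.8 and 45.8, and per kb Socs2 did so at 47.4. Levels per kb depend on the length used. With coding length the median of the members rose from 686 to 1238 normalized counts per kb, and 7 of the 10 members moved by over 1.5 times. With all exons merged the median was 459, and 2 members moved by more than that, Ghr to 385 and Socs2 to 29.0. The coding length leaves out untranslated regions, which by construction raises every value. Matching older symbols left 23 genes of the axis list, and 22 of them reached a mean normalized count of 50.

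No paired analysis was possible because the table holds no values for single mice. For the same reason no replicate was left out, and no sample was compared with the others.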
